A study of Mus musculus with 8 samples.

Results

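The cells described here are CD4+ T cells from the inflamed central nervous system that carried at least 2 Ccr2 transcripts, counted as unique molecular identifiers (UMIs), and no Fgl2 or Ifitm1 UMI. They made up 3404 of the 19583 barcodes kept from the brain and spinal cord at day 14, or 1466 of 10313 in brain and 1938 of 9270 in spinal cord. Barcodes were kept with 500 genes or more and mitochondrial UMIs of up to 10%. They were compared, within each library, with the barcodes that had 0 UMIs of Ccr2, Fgl2 and Ifitm1, 5994 in brain and 3710 in spinal cord. Below, the first are called Ccr2 barcodes and the second comparison barcodes. The working name of the first group was migratory cells, but no measurement of movement entered the data, so the group is called here by its transcripts.

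The mice, Foxp3-Cre-YFP, were immunized to develop EAE (experimental autoimmune encephalomyelitis), the T cell-driven disease used to model multiple sclerosis. In this strain the regulatory T cell gene Foxp3 drives Cre recombinase and a yellow fluorescent reporter. Brain stripped of its meninges and spinal cord were taken 14 days (acute phase) or 50 days (chronic phase) after immunization. From each, T cells that were TCRβ+, CD11b-, CD4+, CD44+ and negative for the Foxp3 reporter were sorted, so both classes compared here carry the same allele, immunization and gate. Transcripts were read from the 3′ end in droplets together with 3 antibody tags, for CD69, CXCR6 and P2X7R. Each tissue and day was 1 library. The number of mice behind a library is not given in the sources used here. Uninflamed tissue, blood and lymphoid organs are not analysed here.

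CCR2 is a G protein-coupled receptor for CCL2 and related chemokines that monocytes and activated T cells use to leave the blood for inflamed tissue. On CD4+ T cells it is found mainly on antigen-experienced effector and memory cells, and in EAE it is known above all for bringing monocytes into the central nervous system. T cells at rest in lymph nodes carry CCR7 instead, and lose it as they become effector cells. Ccr2 lies on mouse chromosome 9 from 124101918 to 124109140 (RefSeq annotation of GRCm38.p6), with Cxcr6 in the same receptor cluster at 123806477 to 123811754.

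Each group was 1 library, so no test between groups was possible and no p-value is given. Intervals are exact 95% limits for counting error alone and do not cover the spread between mice or libraries. Levels are UMIs summed over a class and scaled to that class's total (CPM). Ratios are log2 ratios of Ccr2 to comparison barcodes. A gene was compared if it reached 20 CPM in either class and 10 UMIs over both, and is called higher or lower if it differed by at least 1.5-fold with an interval that left out 1. Ccr2, Fgl2 and Ifitm1 chose the barcodes and were left out of every comparison. The transcripts of one cell are not independent of one another, so every other transcript in this contrast is also a description of the cells the rule picked.

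The Ccr2 barcodes were deeper than the comparison barcodes. Their median was 5061.5 UMIs against 3437 in brain and 5037.5 against 4554 in spinal cord. Each ratio was therefore also computed with the comparison barcodes weighted to the depth of the Ccr2 barcodes, and this depth-weighted value is printed where it ended the call, or turned the sign, of a gene or list that a result turns on. Ribosomal transcripts held 32.0% of the UMIs of the Ccr2 barcodes and 35.4% of the comparison barcodes in brain, and 30.3% against 31.4% in spinal cord. The brain and spinal cord libraries shared 33 barcodes, none of which was a Ccr2 barcode in both. All 3404 Ccr2 barcodes had a T cell receptor or CD3 UMI, and of 12 T cell identity genes none was called in either tissue (median log2 ratio -0.02 in brain, -0.10 in spinal cord).

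The rule selected 14.2% of kept barcodes in brain (exact binomial interval 13.5 to 14.9) and 20.9% in spinal cord (20.1 to 21.7). At day 50 it selected 9.20% of 348 brain barcodes (6.37 to 12.7) and 8.95% of 1620 spinal cord barcodes (7.60 to 10.4). When each barcode was thinned to 2000 UMIs and shallower ones were left out, the shares were 5.48% and 8.28% at day 14 and 4.0% and 4.29% at day 50, for brain and spinal cord. Spinal cord was above brain at day 14 before and after thinning, by more than counting error, and the spinal cord share was lower at day 50 than at day 14. Day 50 brain, with 10 thinned barcodes meeting the rule, had an interval of 1.93 to 7.23 that held the day 14 brain value. Ccr2 itself stood at 510 CPM in the brain Ccr2 barcodes and 538 CPM in those of spinal cord, with at most 11 UMIs in any brain Ccr2 barcode.

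Across the transcriptome the difference was narrow. In brain 116 genes were higher (2.43% of 4775 compared) and 86 lower (1.8%). In spinal cord 63 were higher (1.19% of 5295) and 138 lower (2.61%). Among 4682 genes compared in both libraries, 44 were higher in both (0.94%) and 59 lower in both (1.26%), and none was called in opposite directions. These 103 genes were 51.0% of the brain calls and 51.2% of the spinal cord calls. The log2 ratios of the tissues correlated across genes with Pearson's r 0.77 and Spearman's rho 0.63, given as a description since genes are not independent and the same rule chose both classes. The median ratio of all genes compared was 0.04 in brain and -0.02 in spinal cord. With ribosomal and mitochondrial genes taken out of the totals, the brain split became 102 higher and 171 lower, and the spinal cord split 73 higher and 197 lower.

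**Figure D1:**
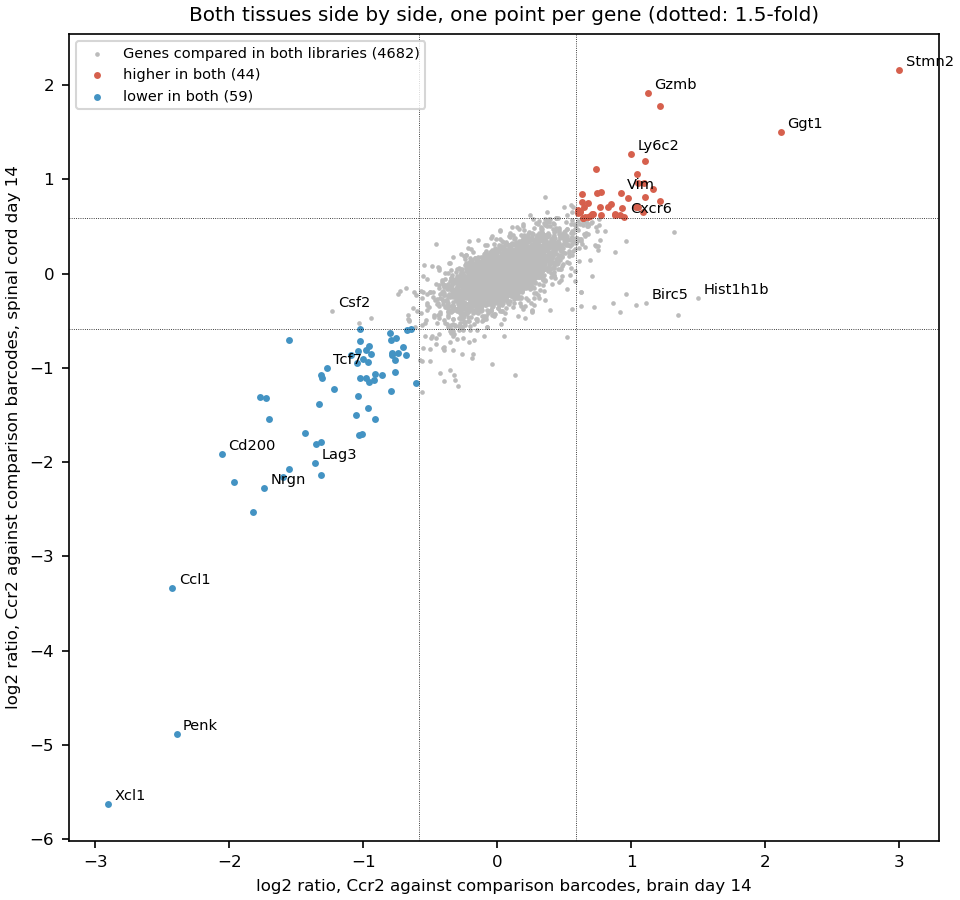
Log2 ratio of Ccr2 to comparison barcodes in brain (x axis) and spinal cord (y axis) at day 14, 1 point per gene compared in both libraries, with dotted lines at 1.5-fold. The 44 genes higher in both and the 59 lower in both lie along the diagonal, with Xcl1, Penk and Ccl1 lowest and Stmn2 highest, while Birc5 and Hist1h1b lie to the right with spinal cord ratios below 0.

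Among other chemokine receptors, Cxcr6 was higher with Ccr2. Cxcr6, the receptor for CXCL16 that is used as a marker of T cells settled in tissue, stood at 485 against 251 CPM in brain (log2 ratio 0.95, interval 0.89 to 1.01) and 674 against 446 CPM in spinal cord (0.60, 0.55 to 0.64). Depth-weighted, Cxcr6 in spinal cord was at 0.55 and short of the call. Cxcr3, which follows interferon-induced chemokines, was not called in either tissue (0.37 and 0.50). Ccr7, the receptor for entry into lymph nodes, was lower in brain and too rare to compare in spinal cord. Of the 4 CCR2 ligand genes searched, none reached the level for comparison, and their summed level in the Ccr2 barcodes was 0.242 CPM in brain and 0.371 CPM in spinal cord.

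Genes of the S100 family and of the motility cytoskeleton were among the higher transcripts. Of 19 compared genes on a list of S100 proteins, galectins and motility cytoskeleton, 11 were higher and 0 lower in brain (median log2 ratio 0.60), and 5 were higher and 0 lower in spinal cord (median 0.38). Depth-weighted, 6 of the 19 were higher in brain (median 0.52). Vim, the intermediate filament vimentin, stood at 1377 against 727 CPM in brain and 1568 against 866 CPM in spinal cord. S100a10, which binds annexin A2 at the membrane, stood at 2702 against 1502 CPM in brain and 2429 against 1454 CPM in spinal cord. Crip1, a small LIM-domain protein, stood at 2071 against 1166 CPM and 2116 against 1298 CPM. Anxa1, the calcium-dependent membrane-binding protein annexin A1, and Flna, the actin crosslinker filamin A, were also higher in both. S100a4, S100a6, Lgals1, Lgals3, Myo1f and Ahnak were called in brain alone, which does not show that the tissues differed in them. Depth-weighted, Ahnak alone of these 6 was still called.

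Of 10 compared integrin and adhesion genes, 2 were higher in each tissue and they were the same genes. Itgb1, the β1 chain of the VLA-4 integrin through which T cells enter the inflamed brain, stood at 383 against 240 CPM in brain (0.68, interval 0.61 to 0.74) and 610 against 404 CPM in spinal cord (0.60, 0.55 to 0.64). The spinal cord interval reached below 1.5-fold, so this call lay close to the cut. Itgb7, a partner of the α4 and αE chains, had ratios of 0.60 and 0.67. Selplg, the selectin ligand PSGL-1, fell just short of 1.5-fold in both (0.57 and 0.52), and Itgal, the α chain of LFA-1, was at 0.40 and 0.19.

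Ggt1, Crip1 and Itgb1, given as markers of these cells with results of these data in view, were higher in both tissues, which is no independent support for the name. Ggt1, which starts the breakdown of glutathione outside the cell, stood at 32.5 against 7.50 CPM in brain (4.33-fold) and 27.7 against 9.77 CPM in spinal cord (2.84-fold). It was rare all the same, since 12.8% of brain and 12.2% of spinal cord Ccr2 barcodes had a Ggt1 UMI, against 2.54% and 4.04% of comparison barcodes. Thinned to 2000 UMIs, these shares were 4.85% and 5.28% against 1.58% and 1.72%. All sorted cells were T cells, so no cell type that lacks these genes shows what free RNA adds to a share. Of 12 compared genes of glutathione and redox handling, only Ggt1 was higher in brain, and Ggt1 and Glrx in spinal cord.

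The rest of the 12 higher genes chosen by the named-gene rule were of several kinds. Gzmb, the cytotoxic protease granzyme B, stood at 83.7 against 38.5 CPM in brain (2.18-fold, log2 interval 0.98 to 1.26) and 55.9 against 14.8 CPM in spinal cord (3.78-fold, 1.71 to 2.13). Ly6c2, part of the Ly6C surface antigen of monocytes and effector T cells, stood at 313 against 157 CPM in brain and 225 against 93.6 CPM in spinal cord. Its close copy Ly6c1 can share reads with it. Ltb4r1, the leukotriene B4 receptor BLT1 and another chemoattractant receptor, stood at 140 against 65.3 CPM and 171 against 97.5 CPM. Ifngr1, the ligand-binding chain of the interferon-γ receptor, had ratios of 0.65 and 0.70. Serpinb1a, an inhibitor of neutrophil-type proteases, had 1.17 and 0.90, and Actn2, an actin-binding α-actinin, had 1.21 and 0.77. AA467197 had 1.04 and 1.06, and Ctla2a, a cysteine protease inhibitor with the close copy Ctla2b, had 0.74 and 0.86. The full set of 12 was higher in spinal cord as in brain by the way it was chosen.

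**Figure D2:**
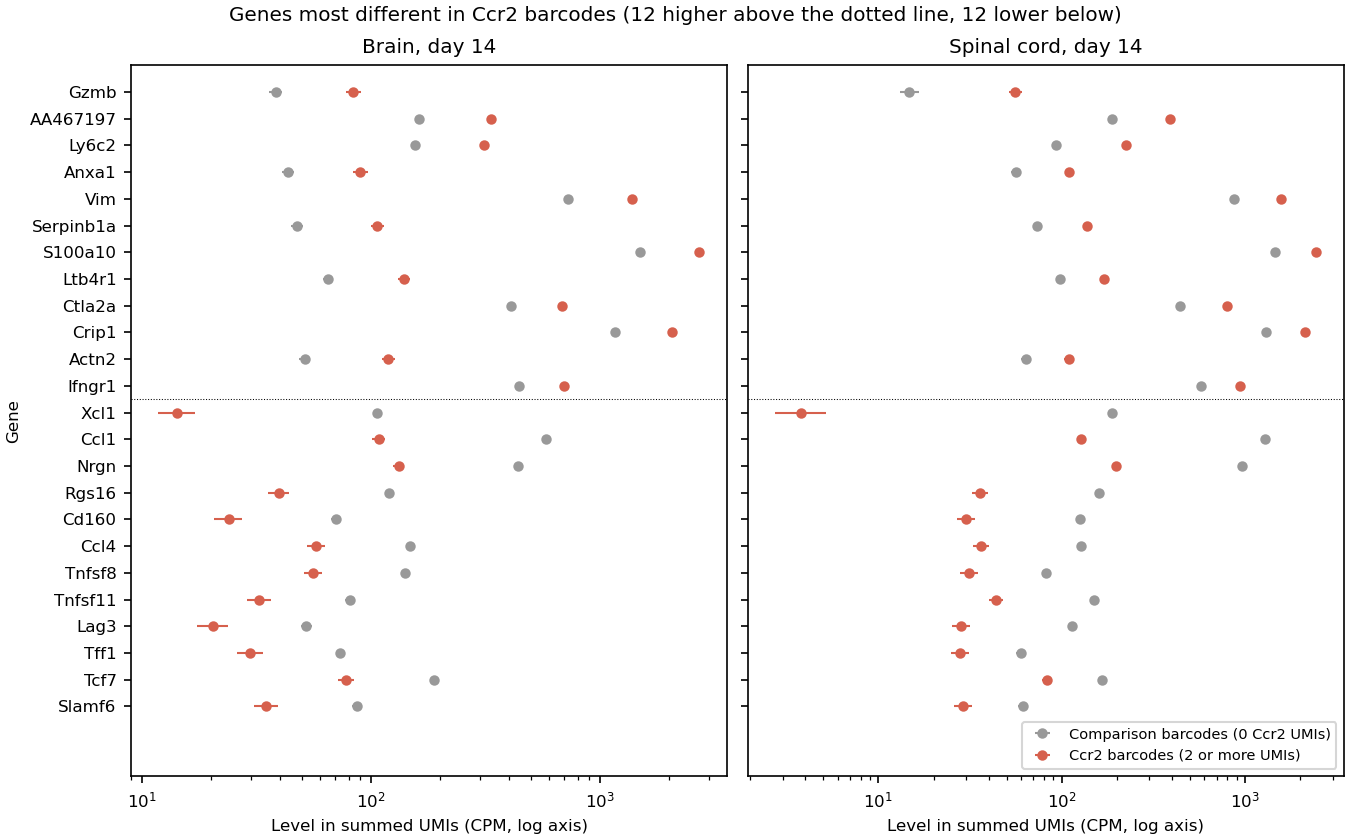
Level of each gene in CPM (log axis) in Ccr2 barcodes (red) and comparison barcodes (grey), in brain (left) and spinal cord (right) at day 14, with bars for the exact 95% Poisson interval of the count. The 12 genes above the dotted line lie to the right in Ccr2 barcodes and the 12 below it to the left, and the widest gap is that of Xcl1 in spinal cord, at 3.8 against 188 CPM.

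In gene lists for related programmes some members were called and others were not. Of all genes compared, 2.43% were higher and 1.8% lower in brain, and 1.19% higher and 2.61% lower in spinal cord. Of 7 compared genes of the Ly6 family with Plac8 and the Ifitm genes, 3 were higher in brain (Ly6c2, Plac8, Ifitm3) and 2 in spinal cord (Ly6c2, Plac8). Plac8, a small cysteine-rich protein, stood at 580 against 273 CPM and 426 against 271 CPM, and depth-weighted it was at 0.56 in spinal cord, short of the call. Ifitm3 is of the same family as Ifitm1, whose absence was part of the rule, and reads can be shared between such copies. Of the cytotoxic list, 4 of 11 were higher and 1 lower in brain, and 2 of 10 higher and 1 lower in spinal cord. Gzmb and its intracellular inhibitor Serpinb9 were higher in both, Klrk1 and Klrc1 in brain, and Cd160 was the lower gene in both.

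Stmn2 had the largest fold of any gene higher in both and is named after its value was seen. It encodes the microtubule regulator stathmin-2, which is best known from neurons. It stood at 32.0 against 4.0 CPM in brain (8.0-fold) and 20.7 against 4.64 CPM in spinal cord (4.46-fold). The UMIs came from 81 brain and 76 spinal cord Ccr2 barcodes, with 13.6% and 14.3% of them in the 2 richest. On the list of glia and endothelium markers the summed level was 90.4 against 93.5 CPM in brain and 144 against 136 CPM in spinal cord, with 0 of 2 compared genes called in either. Snap25, a neuronal marker on that list, had 0 UMIs in the Ccr2 barcodes of both tissues.

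The genes that were lower in the Ccr2 barcodes were led by chemokines, ligands and receptors of activated T cells. Of 11 compared effector cytokines and chemokines, 7 were lower and 0 higher in brain (median log2 ratio -1.31), and 8 were lower and 0 higher in spinal cord (median -1.32). Xcl1, the chemokine lymphotactin that attracts cross-presenting dendritic cells, stood at 14.3 against 106 CPM in brain (-2.90, interval -3.18 to -2.64) and 3.8 against 188 CPM in spinal cord (-5.63, -6.11 to -5.19). Ccl1, the ligand of CCR8, stood at 108 against 581 CPM in brain (-2.42) and 128 against 1288 CPM in spinal cord (-3.34). Ccl4, an inflammatory chemokine, stood at 57.8 against 148 CPM and 36.3 against 128 CPM, and its neighbour Ccl3 was also lower in both. Tnfsf11, the cytokine RANKL, had ratios of -1.31 and -1.78, and Tnfsf8, the CD30 ligand, had -1.33 and -1.39. The genes on this list that were lower in 1 tissue were Csf2 in brain and Il2 and Lta in spinal cord.

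The sums of these chemokines rested on few barcodes. Xcl1 was found in 21 brain and 13 spinal cord Ccr2 barcodes, against 139 and 103 comparison barcodes. The 2 richest Ccr2 barcodes held 50.8% of the brain Xcl1 UMIs and 55.4% of the brain Ccl1 UMIs, and 62.5% of the spinal cord Ccl4 UMIs. Without the 2 richest barcodes of each class, Ccl1 in brain was at -3.44 and Ccl4 in spinal cord at -3.00. These lower values follow from taking out most of the UMIs of the Ccr2 barcodes, so they are no separate check of the differences. The share of Ccr2 barcodes with a Ccl1 UMI, thinned to 2000 UMIs, was 2.21% against 7.09% in brain and 2.90% against 12.2% in spinal cord.

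Some genes induced by T cell receptor signalling, more of them in spinal cord, and some inhibitory receptors were lower as well. Of the TCR activation list, 2 of 14 compared were lower in brain (Tnfrsf9, Tnfrsf4), and 7 of 15 were lower in spinal cord, where Nr4a1, Nr4a2, Nr4a3, Egr2 and Nfatc1 joined them. None was higher. Tnfrsf9, the costimulatory receptor 4-1BB, stood at 16.1 against 39.97 CPM in brain and 20.8 against 91.2 CPM in spinal cord. Of 7 compared inhibitory receptors, 4 were lower in each tissue, and Lag3, Nt5e and Cd200 were lower in both. Lag3 stood at 20.4 against 52.4 CPM in brain (-1.36) and 28.2 against 114 CPM in spinal cord (-2.01). Pdcd1, which encodes PD-1, had -0.56 in brain, short of the call, and -0.93 in spinal cord, where it was lower. Immediate early genes such as Fos and Junb, which also respond to handling, gave 0 calls of 16 in brain and 0 of 15 in spinal cord.

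Nrgn, which encodes the calmodulin-binding protein neurogranin, was among the most lowered genes. It stood at 132 against 440 CPM in brain (-1.74) and 198 against 959 CPM in spinal cord (-2.28). Rgs16, which shortens G protein signals from chemokine receptors, stood at 39.6 against 120 CPM and 35.9 against 160 CPM. It was the only lower gene in both tissues on a list of 17 compared G protein signalling genes. Cd160, a receptor of cytotoxic lymphocytes, had -1.55 and -2.07, and Tff1, a secreted trefoil peptide, had -1.31 and -1.10.

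Transcripts of memory and stem-like T cells were lower too. On that list 6 of 7 compared genes were lower in brain (median -1.31) and 5 of 6 in spinal cord (median -1.07), with none higher. Tcf7, the transcription factor TCF-1, stood at 78.1 against 189 CPM in brain (-1.27, interval -1.39 to -1.15) and 83.1 against 166 CPM in spinal cord (-1.0, -1.11 to -0.90). Izumo1r, the folate receptor FR4 found on anergic and follicular helper cells, stood at 13.5 against 52.6 CPM and 6.12 against 28.4 CPM. Thinned to 2000 UMIs, 12.5% of Ccr2 and 27.0% of comparison barcodes of brain had a Tcf7 UMI, and 13.9% and 26.6% in spinal cord. Slamf6 and Cd27 were lower in both tissues, at -1.31 and -1.08 for Slamf6 and -0.86 and -1.07 for Cd27. Ccr7 was lower in brain and not compared in spinal cord. The comparison class is defined by 0 UMIs of 3 genes and can hold several kinds of T cell, and the part of its make-up in these values was not tested.

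**Figure D3:**
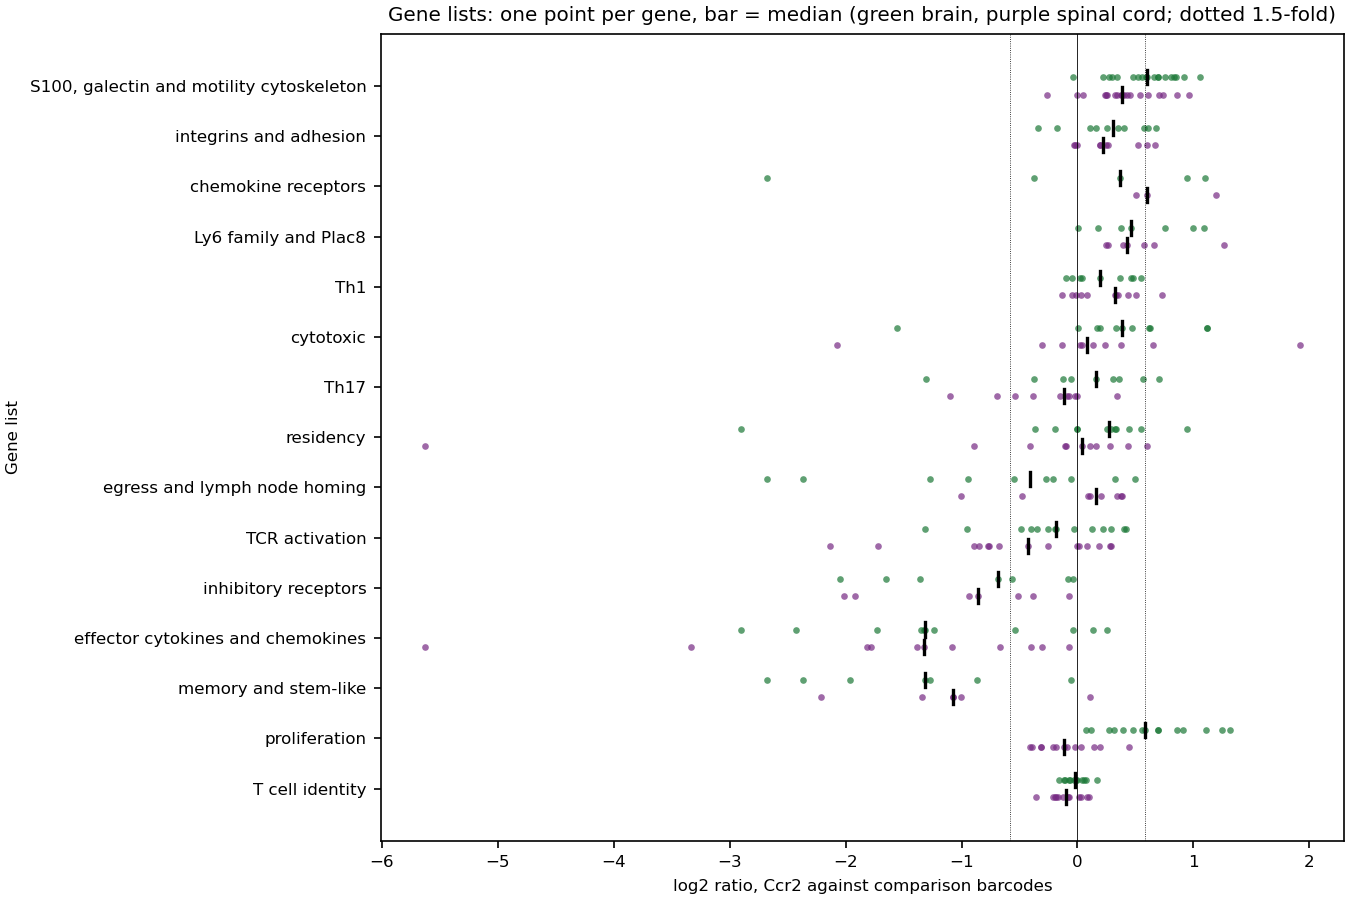
Log2 ratio of Ccr2 to comparison barcodes for every compared gene of 15 gene lists, in brain (green) and spinal cord (purple) at day 14, with a black bar at each list's median and dotted lines at 1.5-fold. The motility list lies right of 0 in both tissues, and the effector cytokine, inhibitory receptor and memory lists lie left of it, while the proliferation list has a median of 0.58 in brain and -0.11 in spinal cord.

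The cytokines that define helper lineages did not follow 1 direction. Ifng, the Th1 cytokine, stood at 406 against 399 CPM in brain and 394 against 386 CPM in spinal cord, with intervals of -0.03 to 0.08 and -0.02 to 0.09 around log2 ratios of 0.02 and 0.03. Depth-weighted, its ratios were -0.27 and -0.05. Thinned to 2000 UMIs, 34.5% of Ccr2 barcodes had an Ifng UMI against 23.9% in brain, and 31.0% against 25.2% in spinal cord, and no order is read from these shares since the levels do not follow them. Il17a, the Th17 cytokine, was higher in brain at 238 against 146 CPM (0.70) and not called in spinal cord at 100 against 102 CPM (-0.02). Depth-weighted, Il17a in brain was at 0.57 and no longer past 1.5-fold. With 0, 1, 2, 3 and at least 4 Ccr2 UMIs, brain Il17a stood at 146, 188, 206, 380 and 151 CPM. Its excess was thus largest in barcodes with 3 Ccr2 UMIs. With at least 4 the interval, 135 to 169 CPM, held the level of the comparison barcodes. The γδ T cell markers, given with the other cell types, were also higher in the brain Ccr2 barcodes. Csf2, which encodes GM-CSF, was lower in brain at 21.4 against 50.3 CPM (-1.23) and not called in spinal cord at 48.2 against 63.7 CPM (-0.40). Brain barcodes with 1 Ccr2 UMI had more Csf2 than those with 0, at 65.0 CPM. Thinned to 2000 UMIs, 2.57% of brain Ccr2 barcodes had a Csf2 UMI (1.80 to 3.54) against 3.90% (3.38 to 4.47). Unthinned, the shares were 5.59% and 5.62%, but the Ccr2 barcodes were deeper, so these do not compare at equal depth. The thinned intervals overlapped, so the lower level is not read as fewer barcodes with Csf2.

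Among the receptors and factors of these lineages, Tbx21, the Th1 factor T-bet, stood at 19.0 against 12.2 CPM in brain, under the level for comparison, and at 25.03 against 19.9 CPM in spinal cord (0.33). Il1r1, the IL-1 receptor chain, was not called in either tissue (-0.13 and -0.38), and Il1r2, its decoy, was lower in spinal cord (-1.12). On the Th1 list 0 of 9 compared genes were called in brain and 1 of 11, Hopx, was higher in spinal cord. On the Th17 list 1 of 9 was higher and 1 lower in brain, and 2 of 10 were lower in spinal cord. Of 5 compared interleukin-1 family receptors, Il1r2 in spinal cord was the 1 called.

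The residency and egress genes gave no common direction. Of the residency list, Cxcr6 was higher and Xcl1 lower in both tissues, and of the other compared genes Nr4a1 in spinal cord was the 1 called. Cd69, the membrane protein that keeps T cells in tissue by removing S1PR1, had ratios of 0.29 and 0.28, and P2rx7, the ATP-gated channel of resident memory cells, had 0.00 and -0.11. Klf2, the factor that drives egress receptors, stood at 266 against 389 CPM in brain (-0.55) and 155 against 146 CPM in spinal cord (0.09). Its target S1pr1 had -0.21 and 0.34. Depth-weighted, Klf2 was at 0.05 and 0.45 and S1pr1 at 0.22 and 0.60, so their sign in brain turned with the depth of the comparison barcodes. Both genes were then positive in both tissues, with S1pr1 in spinal cord past 1.5-fold. On the egress list 4 of 10 compared genes were lower in brain (median -0.41) and 1 of 8 in spinal cord (median 0.16). Depth-weighted, 1 was higher and 3 were lower in brain, with a median of 0.08.

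Cell division genes differed between the tissues before depth weighting. Of 15 compared proliferation genes, 7 were higher and 0 lower in brain (median 0.58), among them Ube2c, Mki67, Birc5, Cdk1 and Rrm2, and 0 of 13 were called in spinal cord (median -0.11). Ube2c, a ubiquitin-conjugating enzyme of mitosis, stood at 80.7 against 32.3 CPM in brain (1.32) and 22.4 against 16.5 CPM in spinal cord. Mki67, the proliferation marker Ki-67, stood at 38.3 against 23.7 CPM in brain (0.69) and 39.0 against 35.3 CPM in spinal cord (0.14). This list moved with depth. Depth-weighted, 2 of 15 were higher in brain with a median of 0.16, and Mki67 was at 0.16. Barcodes with cycle transcripts, thinned to 2000 UMIs, were 6.42% of Ccr2 and 3.68% of comparison barcodes in brain, and 2.69% and 2.78% in spinal cord. Barcodes above 3 times the median depth, where doublets collect, were 4.37% of Ccr2 and 1.52% of comparison barcodes in brain. Without cycling barcodes, 113 genes were higher and 93 lower in brain, and 43 and 59 in both tissues.

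A direct comparison of the log2 ratios between tissues found 5 genes with a ratio higher in spinal cord (0.107% of 4682) and 51 with a ratio lower in spinal cord (1.09%), by 1.5-fold and beyond counting error. Gzmb was one of the 5, by 0.80 (interval 0.55 to 1.05), with Csf2 at 0.83 and Klf2 at 0.64. The depth-weighted ratios of Klf2, 0.05 in brain and 0.45 in spinal cord, lie less than 1.5-fold apart, so depth weighting ends this call. Xcl1 had the most negative difference, at -2.73 (-3.25 to -2.21). Penk, the enkephalin precursor, followed at -2.49, from 5.07 against 26.6 CPM in brain and 0.927 against 27.4 CPM in spinal cord. Il17a differed by -0.73, Lag3 by -0.65 and Ggt1 by -0.61. The brain levels of Il17a and Csf2 did not move steadily with the number of Ccr2 UMIs, as given above. Also lower in spinal cord by this measure were genes of DNA replication and mitosis, such as Hist1h1b (-1.76), Birc5 (-1.42), Stmn1 (-1.32) and Pclaf (-1.18). Depth-weighted, Birc5, Stmn1 and Pclaf in brain were at 0.37, 0.18 and 0.15. Hist1h1b, Birc5, Stmn1, Pclaf and Penk are named after their values were seen.

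The antibody tags were not used by the rule, and the CXCR6 protein differed between the classes as its transcript did. The median count of CXCR6 tags was 25 per Ccr2 barcode (quartiles 12 to 45) and 8 per comparison barcode (4 to 21) in brain. In spinal cord it was 26 (15 to 42) against 17 (8 to 31). The quartile ranges overlapped in both tissues. Weighted to the depth of the Ccr2 barcodes, the comparison medians were 12 and 19. Within the shallowest of 3 depth classes the medians were 16 against 6 in brain and 21 against 12 in spinal cord, and within the deepest 35 against 17 and 31 against 21. Among barcodes without a Cxcr6 UMI the medians were 13 against 5 in brain and 16 against 6 in spinal cord, so the protein differed also where no transcript was caught. These last medians were not weighted for depth. The Ccr2 barcodes were deeper, and the tag count was higher in deeper barcodes of either class.

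The medians of the other tags were not higher in the Ccr2 barcodes. CD69 had a median of 4 in both classes of brain, and 8 in Ccr2 against 9 in comparison barcodes of spinal cord, where depth weighting gave 11. P2X7R had a median of 5 in both classes of brain, and 7 against 9 in spinal cord, where depth weighting gave 10. Unbound tag adds to such low counts, and none of the 3 tags marks a protein absent from T cells, so its level is unknown. The deposited feature table gives the CXCR6 and P2X7R tags a second name each, CD16 and CD3. Over all kept brain barcodes the CXCR6 tag had a median of 22 with a Cxcr6 UMI and 6 without, and the P2X7R tag 11 with a P2rx7 UMI and 4 without.

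**Figure D4:**
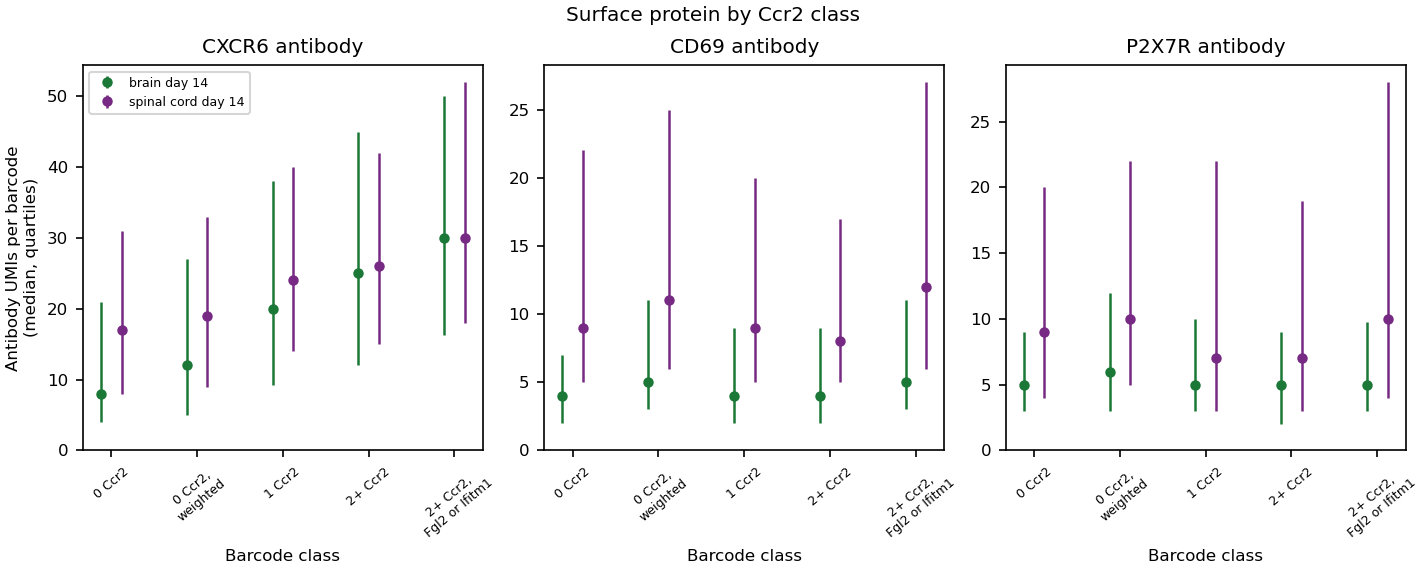
Antibody UMIs per barcode (points, median, and bars, quartiles) for CXCR6, CD69 and P2X7R by barcode class, in brain (green) and spinal cord (purple) at day 14. CXCR6 medians go from 8 to 25 in brain and from 17 to 26 in spinal cord between 0 and at least 2 Ccr2 UMIs without Fgl2 or Ifitm1, and those of CD69 and P2X7R are equal or lower.

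In several genes the threshold of 2 UMIs cut through a graded series. Barcodes just outside it, with 1 Ccr2 UMI and no Fgl2 or Ifitm1 UMI, numbered 1718 in brain and 1525 in spinal cord, and those just inside, with 2, numbered 782 and 924. Depth rose over the same classes. From 0 to at least 4 Ccr2 UMIs the median was 3437, 4286, 4686.5, 5214 and 5810 UMIs in brain. In spinal cord it was 4554, 4633, 4882, 5054 and 5410 UMIs. The levels and tag medians by class were not weighted for depth, and the part of depth in them was not tested. Crip1 in brain stood at 1166 CPM with 0 Ccr2 UMIs, 1645 with 1, 2005 with 2, 2074 with 3 and 2192 with at least 4. Cxcr6 in brain stood at 251, 403, 458, 480 and 540 CPM in the same classes, and in spinal cord at 446, 604, 646, 699 and 695 CPM. Nrgn in spinal cord stood at 959, 347, 240, 192 and 134 CPM. Most of the step lay between 0 and 1 UMI for Tcf7, which stood in brain at 189, 88.1, 77.8, 84.0 and 72.6 CPM. Xcl1 in spinal cord stood at 188 CPM with 0 Ccr2 UMIs and 23.9 CPM with 1. Barcodes with 1 Ccr2 UMI lay nearer to those with 2 than to those with 0 in these genes, but not in all. Itgb1 in brain stood at 240, 280 and 373 CPM with 0, 1 and 2 UMIs, and Anxa1 in spinal cord at 56.3, 71.8 and 101 CPM, each nearer to 0 UMIs. Other named genes, besides Il17a and Csf2 in brain, showed no steady series. Over the same classes from 0 to at least 4 UMIs, Tff1 in spinal cord stood at 59.9, 27.2, 14.1, 28.9 and 50.1 CPM. Ccl4 in brain stood at 148, 44.6, 66.0, 29.5 and 72.1 CPM. The CXCR6 tag medians of 20 and 24 for 1 UMI, in brain and spinal cord, lay close to the 22 and 26 for 2.

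**Figure D5:**
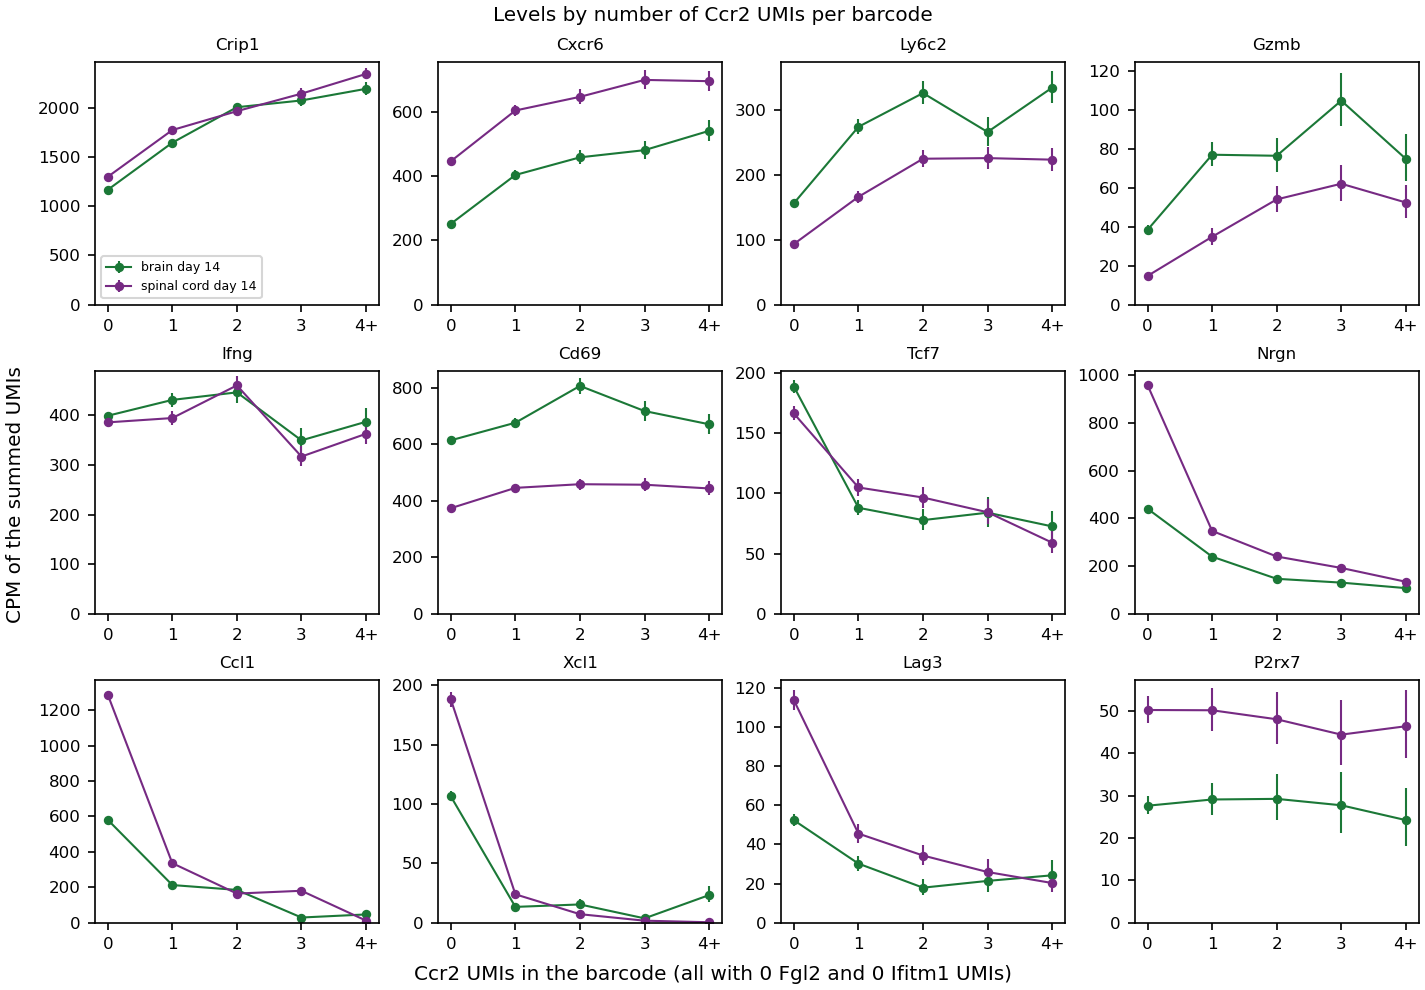
Level in CPM (y axis, from 0) of 12 genes against the number of Ccr2 UMIs in the barcode (x axis), in brain (green) and spinal cord (purple) at day 14, with exact 95% Poisson intervals. Crip1, Cxcr6, Ly6c2 and Gzmb are higher and Tcf7, Nrgn, Ccl1, Xcl1 and Lag3 lower in every class with a Ccr2 UMI than with 0, and Ifng and P2rx7 show no such step. Levels are not weighted for depth, which rose over these classes.

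Ccr2 barcodes that did carry an Fgl2 or Ifitm1 UMI, 386 in brain and 919 in spinal cord, were set beside those that did not. In brain 24 of 4850 genes were higher in the barcodes without them (0.495%) and 60 lower (1.24%), and in spinal cord 11 of 5246 were higher (0.21%) and 40 lower (0.762%). Gzma, the protease granzyme A, was the most separated, at 56.5 CPM without against 219 CPM with them in brain and 32.5 against 194 CPM in spinal cord. Gzma is named after its value was seen. Ifitm3 was lower without them at 408 against 809 CPM and 311 against 633 CPM, and Ifitm2 was lower too, both close relatives of Ifitm1. Klrd1, Cd200r1, Cysltr1, Hist1h2ae, Hist1h2ap and Rrm2 were also lower in both tissues, and Slamf6 and Ifi27l2a were higher. Slamf6 stood at 34.9 against 20.4 CPM in brain and 29.1 against 13.9 CPM in spinal cord. Of the genes described above, Cxcr6, Crip1, Gzmb and Ly6c2 had log2 ratios between -0.12 and 0.21 here and were not called. Others described above did differ. With Fgl2 or Ifitm1, Xcl1 in spinal cord stood at 21.4 CPM and Cd160 in brain at 63.4 CPM, each above its level without them. Il17a with them stood at 392 CPM in brain and 56.4 CPM in spinal cord, above and below the levels without them. Ccl4 with them stood at 21.5 CPM in brain and 91.2 CPM in spinal cord, below and above those levels. The barcodes with Fgl2 or Ifitm1 were deeper, at medians of 5961.5 and 5846 UMIs.

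At day 50 the rule was met by 145 spinal cord barcodes and 32 brain barcodes, and the spinal cord was compared with its own 1107 comparison barcodes. There 154 genes were higher (3.25% of 4743) and 121 lower (2.55%). Of the 44 genes higher in both tissues at day 14, 34 were compared, 31 had the same sign and 15 were higher again, with a median log2 ratio of 0.56. Of the 59 lower genes, 45 were compared, 40 had the same sign and 22 were lower again, with a median of -0.82. Ramp3, part of the adrenomedullin receptor, was the 1 gene called the other way. Among the genes higher again were Ly6c2, Plac8, Cxcr6, Ltb4r1 and Serpinb1a, and among those lower again Ccl1, Nrgn, Lag3, Tcf7, Izumo1r and Slamf6.

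Single genes departed from the day 14 pattern at day 50. Xcl1 stood at 237 CPM in Ccr2 and 238 CPM in comparison barcodes of day 50 spinal cord, and Ccl4 at 96.1 against 95.1 CPM. Itgb1, one of the given markers, stood at 309 against 292 CPM and was not called. Crip1, at 1677 against 1141 CPM, had a ratio of 0.56, short of the call. Gzmb stood at 161 against 12.7 CPM, but 87.2% of its Ccr2 UMIs came from 2 barcodes. Stmn2 had 0 UMIs in the day 50 Ccr2 barcodes. The difference between days was not tested, and with 145 barcodes each value has a wide counting interval. The CXCR6 tag median was 16 against 8 in day 50 spinal cord and 8 against 2 in day 50 brain.

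Other cell types left few transcripts in either class. Csf1r and Cd14, which define monocytes and macrophages, had 0 UMIs in the brain Ccr2 barcodes. Summed over 12 such markers, the level was 25.8 CPM in Ccr2 and 28.8 CPM in comparison barcodes of brain, and 27.4 against 28.6 CPM in spinal cord. At least 3 such UMIs were found in 0.409% of brain and 0.568% of spinal cord Ccr2 barcodes, against 0.417% and 0.539% of comparison barcodes. Markers of γδ T cells, which can make IL-17A, summed to 11.7 CPM in Ccr2 and 7.42 CPM in comparison barcodes of brain, and to 5.47 against 4.91 CPM in spinal cord. At least 3 such UMIs were found in 0.887% against 0.200% of brain barcodes and 0.206% against 0.189% of spinal cord barcodes. Their part in the brain Il17a value was not tested. Markers of dendritic cells summed to 14.7 against 14.5 CPM and 11.2 against 19.5 CPM. Those of NK cells and innate lymphoid cells summed to 5.43 against 4.38 CPM and 6.30 against 6.69 CPM, and those of CD8 T cells to 4.83 against 5.09 CPM and 5.10 against 6.91 CPM. Neutrophil markers were below 1 CPM in each class. Microglia markers summed to 33.7 against 30.2 CPM and 43.9 against 46.3 CPM. B and plasma cell markers summed to 38.8 against 63.1 CPM in brain, where Igkc and Ighm were lower, and 30.2 against 32.8 CPM in spinal cord. In brain, 1.30% of Ccr2 and 2.17% of comparison barcodes had at least 3 UMIs of B and plasma cell markers. The part of these markers in the brain results was not tested. Regulatory T cell markers summed to 76.7 against 88.2 CPM and 118 against 138 CPM, with Foxp3 at 0 in the Ccr2 barcodes of both.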

How the data were processed

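CITE-seq data of sorted CD4+ T cells were used as deposited. The authors deposited raw UMI counts per feature and cell barcode for each of 4 libraries, with genes and 3 antibody tags in 1 table, made with Cell Ranger 6.1.1 against mm10 per the submitters' processing notes. The 2 day 14 libraries held 47272714 (brain) and 50710551 (spinal cord) UMIs in kept barcodes, with medians of 4004 and 4921. Doublets were not removed. The cells described and the 34 gene lists were chosen with earlier results of these data known. Counts were summed per class and compared as CPM with exact conditional binomial intervals, levels have exact Poisson intervals, and shares have Clopper-Pearson intervals (Python 3.11.15, numpy 2.4.6, scipy 1.17.1, pandas 2.3.3). The calling code was tested on simulated counts. Named were the 12 higher and 12 lower genes called in both libraries, at 50 CPM or more, whose nearer interval bound lay farthest from 0. Up to 4 genes of each list by the same measure were added, with the given markers, the transcripts of the antibody targets, and Il17a, Ifng, Csf2, Il1r1, Tbx21, Klf2 and S1pr1. A few items are not reported here. Genes named outside this rule, in the accounts of single lists, of tissues and of Fgl2 or Ifitm1, were picked after their values were seen. The alternatives were depth weighting, TMM scaling, totals without ribosomal and mitochondrial genes, means of each barcode's own CPM, no CPM minimum, at least 3 Ccr2 UMIs, thinning to 2000 UMIs, at most 5% mitochondrial UMIs, and leaving out barcodes that were very deep, cycling, with monocyte UMIs, or the 2 richest per gene. Leaving out the 33 shared barcodes was added after the data were seen.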

Additional observations from a re-analysis of the deposited data

How the results depend on the processing

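All 103 genes called in both tissues kept their direction in both under each of the 13 alternatives, and between 59 and 103 of them were called again. With no CPM minimum, 465 genes were higher and 551 lower in brain, 295 and 651 in spinal cord, and 122 and 264 in both. With ribosomal and mitochondrial genes out of the totals, 171 were lower in brain and 94 in both. With barcodes picked after thinning to 2000 UMIs, 41 were higher in spinal cord and 25 in both, with fewer Ccr2 and more comparison barcodes. The share meeting the rule was 5.48% in brain and 8.28% in spinal cord at 2000 UMIs, and 10.0% and 13.7% at 3000 UMIs. Depth-weighted, the difference of the antibody medians was -1 for CD69, -1 for P2X7R and 13 for CXCR6 in brain, and -3 for CD69 and 7 for CXCR6 in spinal cord. Over these alternatives, 89 of 702 medians of gene lists and 472 of 2756 values of named genes moved outside the limits of their reported value, and none turned a called direction. No paired analysis was possible because a group held 1 library and no numbered replicates. The design has 1 library per tissue and day, so no spread between mice is known. A barcode with 0 Ccr2 UMIs at these depths is not shown to lack the transcript.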

Other observations

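Further gene lists had up to 2 calls in a tissue. Of all genes compared, 2.43% were higher and 1.8% lower in brain, and 1.19% higher and 2.61% lower in spinal cord. In lists this short, 0 or 1 call is not read as a result about the list. Of the glycolysis list, 2 of 12 compared genes were higher in brain, Hk2, which starts glycolysis, and Slc2a3, a glucose transporter, and 0 of 13 were called in spinal cord. Depth-weighted, 0 of the 12 were called in brain. Of the interferon response list, 0 of 11 were called in brain and 1 of 10 was lower in spinal cord. That gene was Ifi27l2a, at 488 CPM in Ccr2 barcodes against 918 CPM in comparison barcodes. Of the TGF-β list, 0 of 8 were called in brain, and Tgfb1 and Tgif1 of 9 were lower in spinal cord. Tgfb1, the cytokine itself, stood there at 149 against 231 CPM. Of 8 compared common gamma chain and other cytokine receptors, Ifngr1 was the 1 called in each tissue. Barcodes with UMIs of both Ifng and Il17a, thinned to 2000 UMIs, were 1.43% of Ccr2 and 1.30% of comparison barcodes in brain and 0.83% and 1.17% in spinal cord. Barcodes with a UMI of Ifng, Il17a or Csf2 were 43.5% against 29.8% in brain and 36.7% against 31.1% in spinal cord, which is not read as an order since the level of Ifng does not follow it.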
